A study of Mus musculus with 2 samples.

Results

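Kainate receptors, delta receptor 1 and the Neto proteins are described here through 8 genes, Grik1, Grik2, Grik3, Grik4, Grik5, Grid1, Neto1 and Neto2, of the 55536 genes in the gene table. The genes were chosen by symbol and from the family they belong to, though with earlier results of these data known, and all 8 were found. The tissue was left cerebral cortex, taken from 2 males of strain B6CASTF1/J, a first-generation hybrid of C57BL/6J and CAST/EiJ, at an age of 2 months. Both animals form 1 group, for which the labels name no treatment and no other genetic change, so the values describe levels, transcript forms and the difference between the animals, and no condition can be compared. The labels give separate tissue samples from separately numbered males, called replicate 1 and replicate 2, and also name a donor record that both share. Each library was made from 300 ng of total RNA with ribosomal RNA reduced and synthetic ERCC spike-in RNAs added.

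Kainate receptors are tetrameric cation channels gated by glutamate. GluK1, GluK2 and GluK3, from Grik1, Grik2 and Grik3, can form channels by themselves, while GluK4 and GluK5, from Grik4 and Grik5, bind kainate with high affinity and reach the cell surface as partners of the other subunits. Neto1 and Neto2 are transmembrane auxiliary proteins with CUB domains that slow the closing and desensitization of these channels. GluD1, from Grid1, belongs to the delta receptors, which are not opened by glutamate and act as postsynaptic adhesion receptors for cerebellins bound to presynaptic neurexins. In cortex kainate receptors are known both on axon terminals, where they tune release, and at synapses, where they give small slow currents.

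Splicing changes the coding sequence of several of these genes, and the segments below are the ones on which the transcript shares reported later turn. They were read from the GENCODE M21 transcripts on build mm10 (minus strand for all), 5′ to 3′, with the coding bases that belong to the named form in capitals and up to 18 flanking coding bases in lower case. Stop codons are not included. The 4 endings of Grik2 are at chr10:49101111-49101272 (54 codons), chr10:49105021-49105065 (15 codons), chr10:49103532-49103648 (39 codons) and chr10:49496098-49496160 (21 codons), in the order printed. The first 3 follow the same 18 bases and so replace each other at the intracellular carboxyl end, and the last closes a much shorter product.
Grik2-202 ending: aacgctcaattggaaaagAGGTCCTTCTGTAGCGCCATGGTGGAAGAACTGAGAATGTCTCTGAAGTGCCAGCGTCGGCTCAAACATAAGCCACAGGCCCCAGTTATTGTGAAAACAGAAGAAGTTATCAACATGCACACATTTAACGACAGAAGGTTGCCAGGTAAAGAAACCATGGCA
Grik2-204 ending: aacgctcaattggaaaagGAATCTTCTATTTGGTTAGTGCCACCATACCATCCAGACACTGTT
Grik2-205 ending: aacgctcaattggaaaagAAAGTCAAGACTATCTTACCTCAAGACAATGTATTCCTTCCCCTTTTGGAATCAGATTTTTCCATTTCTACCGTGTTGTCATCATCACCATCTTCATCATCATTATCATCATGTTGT
Grik2-210 ending: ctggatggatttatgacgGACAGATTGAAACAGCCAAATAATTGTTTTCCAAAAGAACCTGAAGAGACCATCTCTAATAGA

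In Grik1 a cassette exon of 45 bases (15 codons, chr16:87955289-87955333) adds a segment to the extracellular amino-terminal part of GluK1, and another of 87 bases (29 codons, chr16:87896809-87896895) is added to the intracellular end.
Grik1 amino-terminal cassette: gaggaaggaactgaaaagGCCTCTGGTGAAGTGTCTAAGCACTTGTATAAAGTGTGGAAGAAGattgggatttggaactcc
Grik1 carboxyl-terminal cassette: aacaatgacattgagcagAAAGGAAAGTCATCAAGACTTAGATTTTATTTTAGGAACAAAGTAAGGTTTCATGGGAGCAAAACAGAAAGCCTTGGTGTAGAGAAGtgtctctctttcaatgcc

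In Neto2 the models Neto2-201 and Neto2-205 begin with different first coding exons, at chr8:85690835-85690973 (139 bases) and chr8:85700641-85700674 (34 bases). Neto2-205 also holds 21 coding bases, at chr8:85663387-85663407, that Neto2-201 lacks.
Neto2-201 first coding exon: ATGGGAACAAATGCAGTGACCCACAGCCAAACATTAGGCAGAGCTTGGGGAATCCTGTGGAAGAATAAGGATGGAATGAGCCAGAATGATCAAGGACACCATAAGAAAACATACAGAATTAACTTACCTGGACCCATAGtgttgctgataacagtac
Neto2-205 first coding exon: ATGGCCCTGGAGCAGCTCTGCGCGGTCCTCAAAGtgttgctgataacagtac
Neto2-205 internal segment: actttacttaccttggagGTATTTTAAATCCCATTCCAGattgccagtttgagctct

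The table of RefSeq promoters (GRCm38.p6, 250 bases before to 50 after a start) holds 6 entries for 5 of the members, and 2 of them belong to Neto2. They are printed because the first exons just shown lie beside them. The window at chr8:85690960-85691259 ends in the first bases of the Neto2-201 coding sequence, and the window at chr8:85700875-85701174 lies before the first coding exon of Neto2-205. CG dinucleotides are in capitals.
Neto2 window beside the Neto2-201 exon: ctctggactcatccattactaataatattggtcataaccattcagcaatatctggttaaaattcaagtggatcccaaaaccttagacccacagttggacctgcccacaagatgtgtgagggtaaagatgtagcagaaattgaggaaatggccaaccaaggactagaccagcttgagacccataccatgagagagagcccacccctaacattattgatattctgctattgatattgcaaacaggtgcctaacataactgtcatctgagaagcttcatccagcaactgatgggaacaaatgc
Neto2 window before the Neto2-205 exon: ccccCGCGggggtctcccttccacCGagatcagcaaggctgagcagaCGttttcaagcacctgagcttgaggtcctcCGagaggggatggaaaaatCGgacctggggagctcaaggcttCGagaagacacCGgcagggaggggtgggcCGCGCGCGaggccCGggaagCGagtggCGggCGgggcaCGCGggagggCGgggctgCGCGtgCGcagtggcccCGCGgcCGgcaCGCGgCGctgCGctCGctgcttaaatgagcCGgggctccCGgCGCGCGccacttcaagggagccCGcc
The first window holds 0 CG dinucleotides at a G+C content of 42.7%, and the second holds 36 at 72.0%. Across all 32851 promoter windows of this length the median is 7 CG dinucleotides and 52.7% G+C, and 6.23% of windows hold at least 36. The other 4 entries, for Grik2, Grik3, Grik4 and Grik5, hold 26, 50, 42 and 10. The motif TATAAA, searched on both strands, is in none of the 6 windows and in 13.6% of all windows, which describes these letters in these windows only.

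Depth was 33007629 expected counts (estimated read numbers that need not be whole) in replicate 1 and 32142918 in replicate 2, of which the 8 genes took 0.0731% and 0.0699%. Marker genes of cortex were abundant: the 5 markers of cortical excitatory neurons summed to 2599 and 2687 TPM (a level per transcript length, scaled to the same total in each library) in replicates 1 and 2, and the 3 cerebellar markers to 0.28 and 0.14. The libraries differed in markers of neighbouring structures. All 8 striatal markers were lower in replicate 2, with a sum of 312 against 172 TPM, and the choroid plexus gene Ttr was at 8.58 against 89.2.

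All 8 genes were expressed at 1 TPM or more in both animals, from 8.08 to 91.6 TPM, and Grik5 was the highest in both. The share of all genes at 1 TPM or more was not counted. Values below are for replicate 1 and then replicate 2, with mean ± SD over the 2 animals. The deposited lower and upper bounds that follow some of them are those of the authors' estimate within a library. In bulk tissue, fewer cells of a type and less RNA per cell cannot be told apart.

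Among the genes of subunits that form channels by themselves, Grik2 led by gene TPM. Grik2 (ENSMUSG00000056073.16, chromosome 10, 49094833 to 49788766, minus strand) was at 31.7 and 31.3 TPM (31.5 ± 0.290, n = 2), from 2378 and 2293 expected counts. Grik3 (ENSMUSG00000001985.9, chromosome 4, 125490700 to 125714173, plus strand) was at 20.4 and 18.7 TPM (19.5 ± 1.17), from 3933 and 3546 counts. Grik1 (ENSMUSG00000022935.16, chromosome 16, 87895900 to 88290265, minus strand) was at 9.31 and 10.1 TPM (9.70 ± 0.544), from 664 and 670 counts. The animals did not overlap between any of these genes, and the order Grik2, Grik3, Grik1 was the same in each library. Grik2 was 1.61 ± 0.0822-fold above Grik3 per length, although Grik3 had more counts, over a single annotated transcript of 8973 bases. Counts per kilobase of each gene's longest transcript put Grik2 below Grik3, at a ratio of 0.596 ± 0.0283, a scale set for Grik2 by the model Grik2-207 of 9427 bases. Gene TPM of Grik2 also holds shorter and noncoding models, described with the transcript forms. Its products of 908, 869 and 893 residues were at 10.1 and 8.99, 6.61 and 7.92, and 0.37 and 0.66 TPM. Together these products lay below Grik3 in both animals.

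The subunits that need a partner lay at opposite ends of the range. Grik5 (ENSMUSG00000003378.9, chromosome 7, 25009849 to 25072346, minus strand) was at 87.4 and 91.6 TPM (89.5 ± 2.96), from 6546 and 6508 counts, with deposited bounds of 82.9 to 88.0 and 86.4 to 92.4. Grik4 (ENSMUSG00000032017.14, chromosome 9, 42518135 to 42944493, minus strand) was the lowest member, at 8.44 and 8.08 TPM (8.26 ± 0.255), from 757 and 716 counts. Grik5 exceeded Grik4 by 10.4-fold and 11.3-fold in the animals. Among 21951 protein-coding genes, mean TPM put Grik5 at the 95.01th percentile and Grik4 at the 59.3rd.

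The 5 Grik genes summed to 157 and 160 TPM (158 ± 1.78). Grik5 held 56.5% ± 1.23 of that sum, Grik2 19.9% ± 0.407, Grik3 12.3% ± 0.880, Grik1 6.12% ± 0.275 and Grik4 5.21% ± 0.219. The summed level of Grik4 and Grik5 was 1.56 and 1.66 times that of Grik1, Grik2 and Grik3 (1.61 ± 0.0689). This ratio stayed above 1 on every other measure of level tried, from 1.46 to 2.05. For scale, the 4 AMPA receptor genes summed to 461 and 487 TPM and the 7 NMDA receptor genes to 470 and 493, so that the Grik genes held 14.4% and 14.0% of these 3 families together.

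Grid1 (ENSMUSG00000041078.7, chromosome 14, 34820108 to 35583379, plus strand) was at 24.0 and 21.5 TPM (22.8 ± 1.796), from 2781 and 2468 counts. It stood above Grik3 and Grik1 in both animals, and equalled 14.4% ± 1.30 of the summed Grik level.

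The auxiliary subunit genes were both in the upper part of the family in the gene table. Neto1 (ENSMUSG00000050321.3, chromosome 18, 86394952 to 86506718, plus strand) was at 42.3 and 41.6 TPM (41.9 ± 0.530), from 4251 and 3761 counts, with deposited bounds of 35.8 to 47.3 and 35.1 to 46.5. Neto2 (ENSMUSG00000036902.11, chromosome 8, 85636588 to 85700924, minus strand) was at 30.2 and 26.9 TPM (28.6 ± 2.33), from 2807 and 2491 counts. The Grik genes together exceeded the Neto genes together 2.17-fold and 2.33-fold (2.25 ± 0.116). Neto1 exceeded Neto2 by 1.40 and 1.54 in this table, an order that turned on other measures, as described with the transcript forms.

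**Figure D1:**
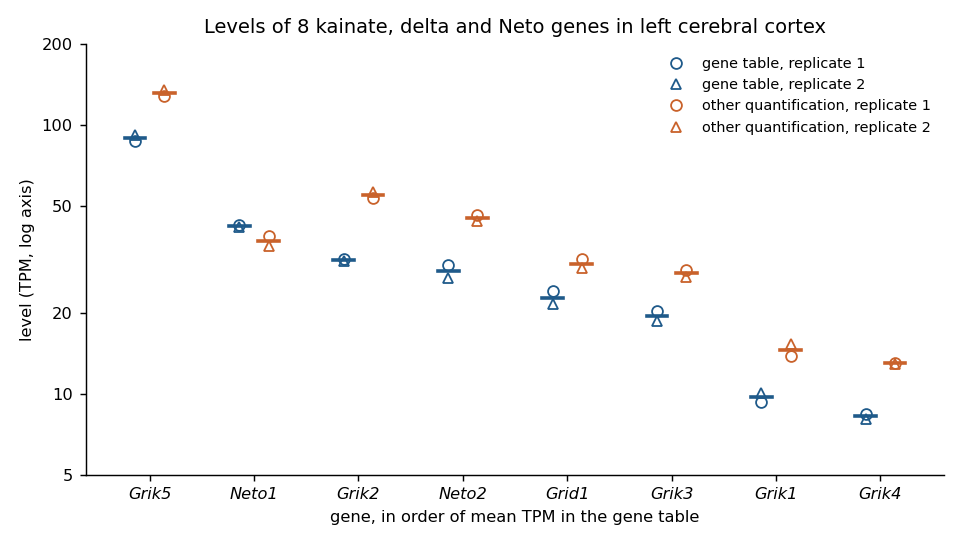
Level of each gene in TPM (log axis) by gene, in order of mean TPM in the gene table. Circles are replicate 1, triangles replicate 2 and bars the mean of both, in blue for the gene table and in orange for the other quantification. Grik5 is highest in both (means of 89.5 and 131 TPM), and Neto1 is the only gene that is lower in the other quantification (36.9 against 41.9 TPM).

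By mean TPM the order was Grik5, Neto1, Grik2, Neto2, Grid1, Grik3, Grik1 and Grik4. Neighbours were called separated where both animals of the higher gene lay above both animals of the lower one in the gene table, and did so again in the other quantification, a transcript table made directly from the reads and summed per gene. Of the 7 pairs of neighbours, 6 were separated in this sense. The exception was Neto1 and Grik2, which did not overlap in either quantification but stood in opposite order. The steps between neighbours were often small: Grik2 exceeded Neto2 by 1.10, Grid1 exceeded Grik3 by 1.17 and Grik1 exceeded Grik4 by 1.17. In replicate 1 the deposited bounds overlapped for Grik2 and Neto2 (28.3 to 34.4 against 27.9 to 30.99) and for Grik1 and Grik4 (8.62 to 10.1 against 7.54 to 8.86), and in replicate 2 for no pair.

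In the other quantification 7 of the 8 genes were higher, but the share of all genes that were higher was not counted. The AMPA and NMDA receptor sums were higher there too, at means of 693 and 687 against 474 and 481 TPM. By percentile among protein-coding genes, only Grik2 rose, from 83.0 to 84.3. Grik5 (131 ± 4.74 TPM) again led. Grik2 followed at 53.3 and 56.2 TPM (54.7 ± 2.06), then Neto2 at 46.2 and 43.98 (45.1 ± 1.54), Neto1 at 38.5 and 35.3 (36.9 ± 2.26), Grid1 at 31.6 and 29.4 (30.5 ± 1.58), Grik3 at 28.8 and 27.2 (28.0 ± 1.12), Grik1 at 13.8 and 15.4 (14.6 ± 1.09) and Grik4 at 13.0 and 12.9 (13.0 ± 0.105). The ratio of the other quantification to the gene table ran from 0.880 for Neto1 to 1.74 for Grik2. The lower part of the order, Grid1, Grik3, Grik1, Grik4, was the same in both.

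The 8 genes have 43 annotated transcripts, of which 27 held a mean share of at least 5% of their gene's TPM in either quantification. The leading transcript was the same in both quantifications for 6 genes, and it differed for Grik2 and Neto2. Grik3 has 1 annotated transcript, which encodes 919 residues. Grid1 was nearly all Grid1-201 (1009 residues), at 94.0% and 94.97% of gene TPM, and at 97.6% and 97.4% in the other quantification. Both Grik4 transcripts, Grik4-201 and Grik4-202, encode the same 956 residues, and Grik4-201 held 66.9% ± 0.848, or 75.3% ± 2.68 in the other quantification.

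Grik2 had no dominant form. The product of 908 residues that carries the Grik2-202 ending, from Grik2-202 and Grik2-207, held 31.8% and 28.7% of gene TPM. That ending contains a basic stretch known to promote exit of GluK2 from the endoplasmic reticulum. The product of 869 residues with the short Grik2-204 ending, from Grik2-201 and Grik2-204, held 20.9% and 25.3%. The product of 893 residues with the Grik2-205 ending held 1.17% and 2.11%. Of the TPM of complete coding forms, these 3 endings took 39.1% ± 3.35, 29.8% ± 3.68 and 2.11% ± 0.832, and in the other quantification 36.5% ± 1.76, 31.95% ± 2.40 and 3.13% ± 2.21. The order of the 3 endings was therefore the same in both quantifications and in both animals.

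Within the form of 869 residues the libraries divided their reads differently. Grik2-201 had 0 expected counts in replicate 1 and 289 in replicate 2, while Grik2-204 had 429 and 161. Since both models encode the same product, the 869-residue product was more even between the animals than either model alone.

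Grik2-210, which ends after 338 codons and so lacks the channel part of the longer product, held 22.9% and 22.1% of gene TPM, and 18.2% and 19.9% in the other quantification. It was the leading Grik2 transcript in the first transcript table, from 314 and 293 counts. Grik2-206, a model of 539 bases with an incomplete coding sequence, had the highest mean share in the other quantification, at 19.5% and 22.4%, on 35.8 and 44.7 estimated counts, against 8.90% and 7.001% on 27.0 and 20.6 expected counts. In replicate 1 of the other quantification Grik2-204 was higher, at 22.6%. Transcripts with a retained intron, mostly Grik2-203, held 13.2% and 13.8%.

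Grik1, the member with the fewest counts, was spread over many forms. Grik1-201 (905 residues) led with 38.2% and 26.0% of gene TPM, followed among the coding forms by Grik1-202 (934 residues, with the carboxyl-terminal cassette) at 15.7% and 21.3% and Grik1-211 (920 residues, with the amino-terminal cassette) at 10.9% and 5.85%. Grik1-206 (903 residues), which has another carboxyl end, was at 4.399% and 2.68%. Grik1-210, with 871 residues, was at 0 in the first transcript table and at 11.6% and 6.23% in the other quantification. The forms did not move together between the animals: the shares of Grik1-201 and Grik1-211 were higher in replicate 1 and that of Grik1-202 in replicate 2. In the other quantification Grik1-202 was at 18.1% and 17.9%, and so not higher in replicate 2.

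Counted over all complete coding forms of Grik1, the amino-terminal cassette was in 15.8% and 10.03% of TPM, and in 21.8% and 20.3% in the other quantification. The carboxyl-terminal cassette was in 22.6% and 36.6%, and in 23.4% and 38.5%. On this count the carboxyl-terminal cassette was the more frequent of the pair in each animal by both quantifications, and higher in replicate 2. In the other quantification it was higher partly through Grik1-209, which holds both cassettes and had 0 and 41.5 estimated counts in the animals. The models Grik1-204, Grik1-205, Grik1-207 and Grik1-208, which retain an intron, together held 30.8% and 41.7% of gene TPM (36.3% ± 7.73), and 22.9% and 37.3% in the other quantification. Whether the differences between the animals within Grik1 exceed the error of dividing 664 and 670 counts over 11 models was not tested.

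Grik5 was mostly its full-length form. Grik5-201 (979 residues) held 88.1% and 83.8% of gene TPM, and 73.8% and 73.5% in the other quantification. A pair of models annotated as targets of nonsense-mediated decay, the pathway that degrades transcripts with an early stop codon, made up part of the rest. Grik5-202 held 2.37% and 2.13%, or 4.84% and 4.55% in the other quantification, and Grik5-207 held 2.05% and 2.92%, or 11.4% and 10.2%. Grik5-207 had 154 and 226 expected counts, against 922 and 855 estimated counts in the other quantification. The share of Grik5-207 thus depended more on the quantification than on the animal. Its coding sequence leaves that of Grik5-201 for 41 codons of its own (chr7:25061217-25061339, minus strand) and then stops, and these codons are shown in capitals after the last 18 shared bases.
Grik5-207 ending: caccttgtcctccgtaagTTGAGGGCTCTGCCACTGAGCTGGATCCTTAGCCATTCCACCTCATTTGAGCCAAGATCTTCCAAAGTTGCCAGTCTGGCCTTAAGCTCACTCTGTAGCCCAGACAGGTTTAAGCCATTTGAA

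The main Neto2 forms were close to each other. Neto2-201 (553 residues, 5610 bases) held 53.6% and 55.2% of gene TPM, and Neto2-205 (525 residues, 2932 bases) held 39.2% and 44.1%. In the other quantification the order turned, with Neto2-205 at 48.2% and 50.1% and Neto2-201 at 42.1% and 41.4%. The models differ in the first exon and the internal segment printed above, and also in the length of the 3′ end. The use of the CG-poor and of the CG-rich window therefore cannot be read from these shares alone.

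**Figure D2:**
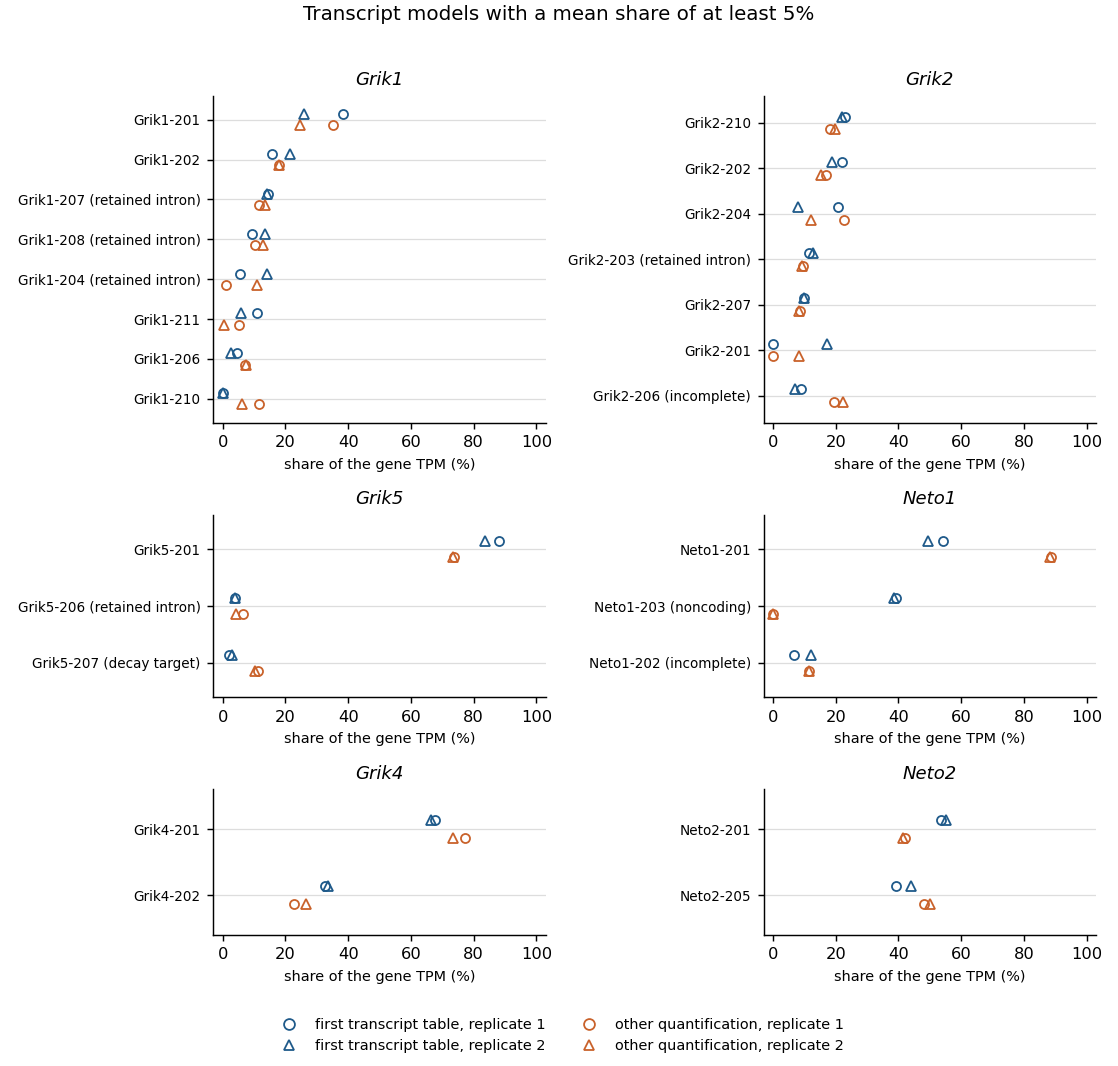
Share of the gene TPM (percent) for each transcript model with a mean share of at least 5%, for 6 genes. Circles are replicate 1, triangles replicate 2, blue the first transcript table and orange the other quantification. Neto1-203 is at 39.2% and 38.5% in the first table and at 0 in the other, and Neto2-201 and Neto2-205 change places between the quantifications.

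The level of Neto1 in the gene table rested in large part on a short model. Neto1-201 (533 residues, 8352 bases) held 96.6% of the gene's expected counts, as a mean of the animals, but 54.2% and 49.4% of its TPM. Neto1-203 is a noncoding model of 384 bases with 4 exons, which overlap exons 1, 2, 3 and 7 of the 11 exons of Neto1-201 and leave out exons 4 to 6. It had 102.9 and 97.4 expected counts, a mean of 2.50% of the gene's counts, and 39.2% and 38.5% of its TPM. In the other quantification Neto1-203 was at 0 in both animals, and Neto1-201 held 88.5% and 88.4% of TPM.

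The arithmetic of TPM gives short models a large weight. There, 100 expected counts were worth 16.1 and 16.4 TPM for Neto1-203, and 0.557 and 0.567 TPM for Neto1-201. For Neto2-201 the same counts were worth 0.833 and 0.849 TPM. An antisense gene, AC113599.1, overlaps the last exon of Neto1-203 and had 0 counts in both animals, and since it is not given whether counting used the strand, reads of the overlap cannot be told apart.

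**Figure D3:**
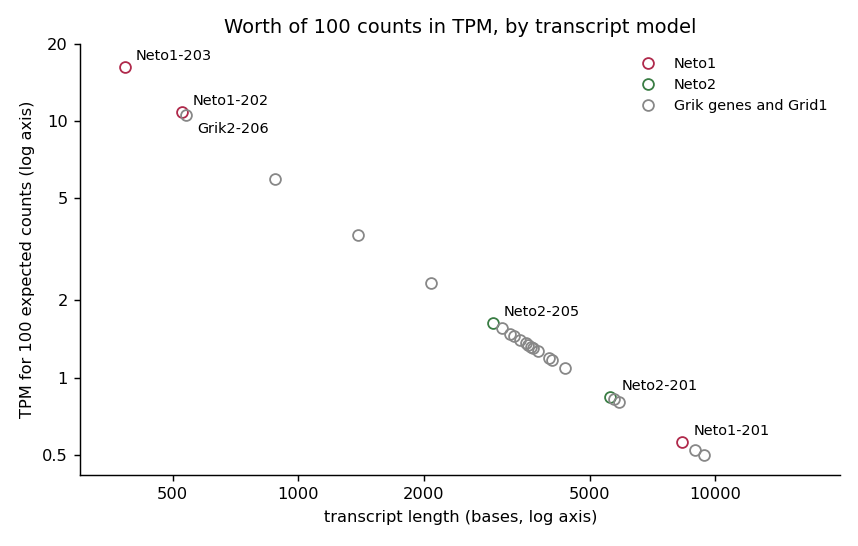
TPM given for 100 expected counts (log axis) against transcript length in bases (log axis), as the mean of both animals, for the named transcript models with counts in both. Red points are Neto1, green Neto2 and grey the other genes. Neto1-203 (384 bases) lies highest, at 16.1 and 16.4 TPM in the animals, and Neto1-201 (8352 bases) near the low end, at 0.557 and 0.567.

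The order of Neto1 and Neto2 differed between measures of level. Over complete coding forms alone, Neto1 was at 22.9 and 20.5 TPM and Neto2 at 28.1 and 26.8, a ratio of 0.818 and 0.767 (0.792 ± 0.0361). With whole genes in the other quantification the ratio was 0.834 and 0.803 (0.819 ± 0.0221), and with complete coding forms there it was 0.777 and 0.735 (0.756 ± 0.0299). Expected counts per kilobase of the longest transcript gave 1.02 and 1.01. Neto1 was thus above Neto2 in both animals in the gene table, below it in both on 3 other measures, and about equal on the last.

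**Figure D4:**
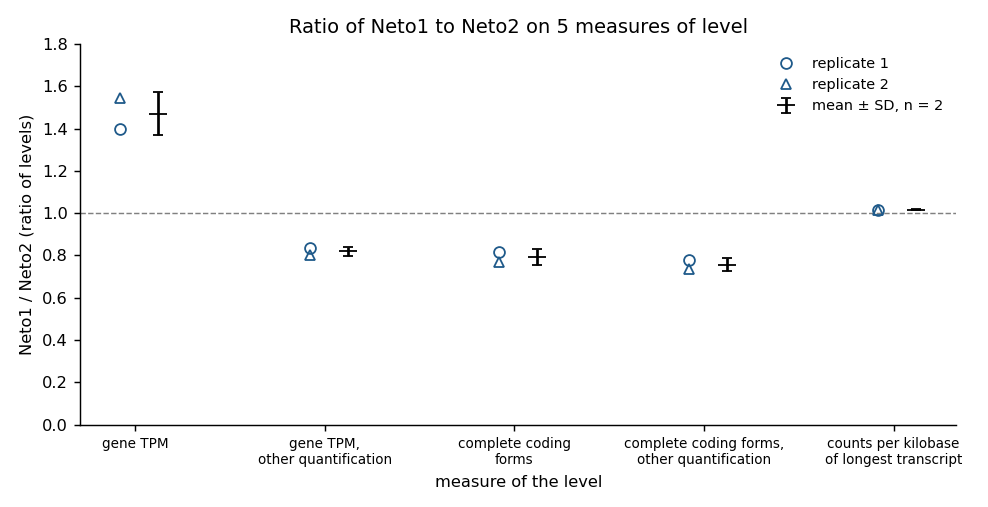
Ratio of the Neto1 level to the Neto2 level (vertical axis, from 0) on 5 measures of level. Circles are replicate 1, triangles replicate 2, black bars mean ± SD (n = 2) and the dashed line a ratio of 1. The gene table gives 1.47 ± 0.101, and the measures that leave out Neto1-203 or assign it no reads give 0.756 to 0.819.

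Over complete coding forms the order of the family was Grik5 (76.8 ± 0.163 TPM), Neto2 (27.4 ± 0.919), Grik2 (24.4 ± 0.0990), Neto1 (21.7 ± 1.72), Grid1 (21.5 ± 1.53), Grik3 (19.5 ± 1.17), Grik4 (8.26 ± 0.255) and Grik1 (6.17 ± 0.403). Neto1 and Grid1 overlapped between the animals there. Grik1 was below Grik4 on this measure in both quantifications, with its retained-intron models left out. Grik5 remained 2.80 times as high as the next gene. The Grik2 value includes Grik2-210 (7.26 and 6.90 TPM), which lacks the channel part. Without Grik2-210, Grik2 lay below Grik3 in both animals and by both quantifications.

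The coding sequences were compared because reads of like genes could be mistaken for each other. A complete coding form of each gene was used, the longest except for Grik1, where it was Grik1-201. Identity was 71.5% to 72.5% among Grik1, Grik2 and Grik3, 72.6% between Grik4 and Grik5 and 67.2% between Neto1 and Neto2. Pairs across these groups were at 58.3% to 65.0%. Pairs of a Grik and a Neto gene alone spanned 58.3% to 63.4%, so this range does not measure how far reads are shared. Between transcripts of different members at most 42 words of 31 bases were shared, for Grik3 and Grid1. The deposited posterior SD of the gene count, a score of how far reads are shared with other genes, was 0 for all 8 genes in both libraries.

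The animals differed little in these genes. No member differed 2-fold or more. Comparing replicate 2 with replicate 1 after TMM scaling, 4 of the 8 genes were lower in replicate 2 beyond counting error (the 95% interval of the log2 ratio leaves out 0) and 0 were higher. Over all 18490 genes compared, 22.6% differed in either direction by this rule and 11.6% were lower, and 1.8% differed 2-fold or more. Since the interval narrows with counts, the closer reference is the 7413 genes with a mean count of 500 to 7000, of which 29.5% differed and 17.2% were lower.

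Neto1 had 4251 and 3761 counts, a log2 ratio of -0.15 (interval -0.21 to -0.08). Neto2 had 2807 and 2491 counts, a log2 ratio of -0.14 (-0.22 to -0.06). By counts, both auxiliary subunit genes were thus lower in replicate 2, by 1.11-fold and 1.10-fold. Grid1 was lower by a like amount, with 2781 and 2468 counts and a log2 ratio of -0.14 (-0.22 to -0.06). Grik3, with 3933 and 3546 counts, was at -0.12 (-0.18 to -0.05). From TPM with a pseudocount of 1, which has no interval, Neto1 was only at -0.03. On that scale Neto2 was at -0.16, Grid1 at -0.15 and Grik3 at -0.12.

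The other Grik genes did not pass. Grik1 was at 0.04 (-0.11 to 0.20), Grik2 at -0.02 (-0.11 to 0.06), Grik4 at -0.05 (-0.20 to 0.10) and Grik5, the gene with the most counts, at 0.02 (-0.03 to 0.07). The median over the 8 genes was -0.08, against 0.00 over all genes compared. Among the genes of like count, the 16th and 84th percentiles of the log2 ratio were -0.11 and 0.09, and 24.0% differed by at least as much as Grik3. There is 1 animal on each side, so these ratios have no replicate check and no p-value.

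**Figure D5:**
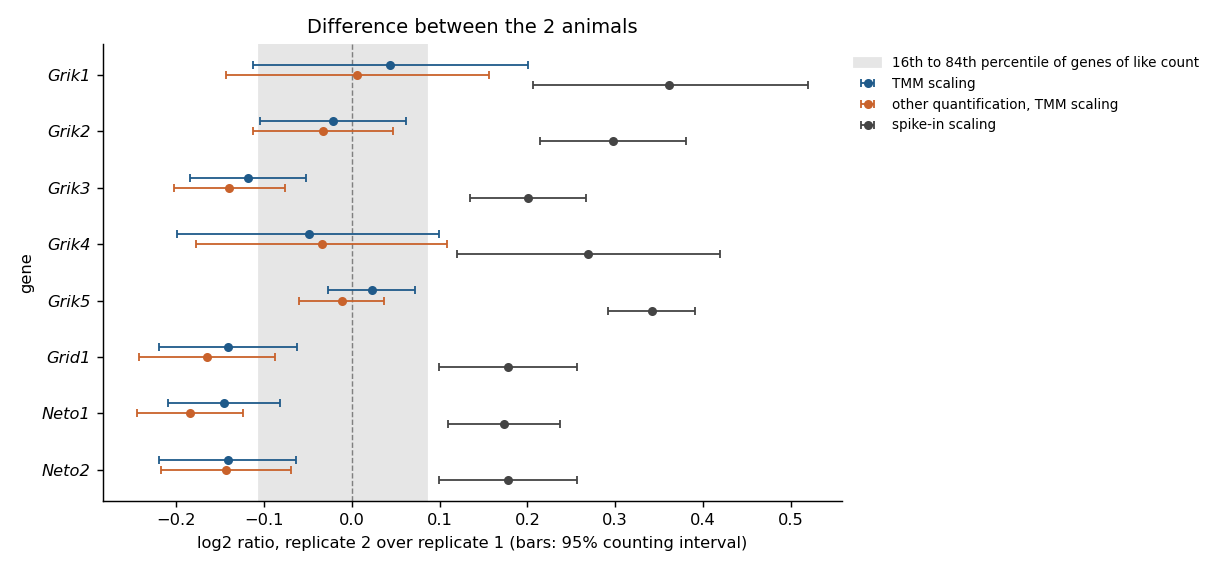
Log2 ratio of replicate 2 over replicate 1 (horizontal axis) for each gene, with 95% counting intervals. Blue is TMM scaling, orange the other quantification and dark grey spike-in scaling, and the shaded band runs from the 16th to the 84th percentile of genes with a mean count of 500 to 7000. Neto1, Neto2, Grid1 and Grik3 lie below 0 with TMM scaling, and all 8 genes lie above 0 with spike-in scaling, where the median of all genes is 0.32.

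The direction against 0 depended on the scaling. With totals of the ERCC spike-ins as the scale, the median over all genes moved to 0.32 and all 8 genes lay above 0, from 0.17 for Neto1 to 0.36 for Grik1. Relative to that median the values were -0.14 for Neto1, Neto2 and Grid1, -0.12 for Grik3, -0.05 for Grik4, -0.02 for Grik2, 0.03 for Grik5 and 0.05 for Grik1. The statements on single genes above are therefore relative to the other genes of the library.

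Markers of several cell types moved between the same libraries. All 8 striatal markers were lower in replicate 2 (median log2 ratio -1.01), as were 4 of 4 markers of mature oligodendrocytes (-0.28, sums of 490 and 394 TPM), 5 of 7 of inhibitory neurons (-0.14, 561 and 520 TPM) and 3 of 4 of deep cortical layers (-0.23, 69.6 and 60.6 TPM). Lower, too, were 3 of 4 astrocyte markers (-0.08, 607 and 581 TPM), 2 of 3 of thalamus (-0.27, 28.2 and 21.7 TPM), and 1 of 3 each of oligodendrocyte precursors and endothelium, while 0 of 3 microglial markers passed in either direction. Of the 5 markers of excitatory neurons 1 was lower and 1 higher (median 0.01). Upper layer markers had 2 of 3 higher (0.11, 236 and 255 TPM), and both choroid plexus markers that could be compared were higher, Folr1 being at 0 counts in replicate 1. The part of these shifts in the differences of Neto1, Neto2, Grid1 and Grik3 was not tested.

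Partners of the receptors were looked at in 3 lists. Of 13 listed scaffold and trafficking genes, 12 were analysed and 1 was not analysed here. They were led by Snap25 (1448 and 1435 TPM), a release protein that binds GluK5, and the postsynaptic scaffold gene Dlg4 (361 and 361 TPM). Snap25 and Dlg4 were above Grik5, while Grip1 and Grip2 were near Grik4, at 8.77 ± 0.297 and 7.85 ± 0.969 TPM. Only Cul3, a ubiquitin ligase scaffold gene, was lower in replicate 2 (4011 and 3679 counts, log2 ratio -0.09, -0.16 to -0.03), and the list's median was -0.03.

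The RNA editing enzymes act on Grik1 and Grik2 transcripts, in which a glutamine codon of the pore can be recoded to arginine, a change known chiefly as a target of Adarb1. Adarb1 was at 62.3 and 61.4 TPM, Adar at 61.5 and 61.7 and Adarb2, which is known to lack editing activity, at 9.60 and 10.1. None of the 3 differed between the animals beyond counting error. Editing itself cannot be read from these tables.

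The extracellular and presynaptic partners held genes that differed in either direction. The neurexin genes Nrxn2 and Nrxn3 were at 272 ± 1.12 and 116 ± 7.35 TPM, and Nrxn3 (log2 ratio 0.12, 0.08 to 0.15) was higher in replicate 2. Of 9 genes in the list, 4 were lower and 2 higher, with a median of -0.03. Cbln3, a cerebellin gene, had the most different ratio, -1.04 (-2.50 to -0.0040), from 21 and 9 counts. The other 3 lower genes are named because their number is small, after their values were seen: Cbln1 had 287 and 142 counts (-0.97, -1.28 to -0.69), C1ql2 had 125 and 81 (-0.58, -1.02 to -0.18) and Cbln4 had 899 and 755 (-0.22, -0.36 to -0.08). Cbln2 (26.0 and 27.2 TPM), also a ligand of delta receptors, was the highest cerebellin gene and did not pass (0.10, -0.01 to 0.21). The other cerebellin genes, at means of 13.7 TPM or below, were all lower in replicate 2 with TMM scaling.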

How the data were processed

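Total RNA-seq of 2 libraries was used, 1 group of 2 animals. Per the file headers and the description deposited beside them, the authors aligned reads to the transcriptome (mm10, GENCODE M21) and derived expected counts and TPM per gene and per transcript, without pooling replicates. The other quantification is a second deposited transcript table of estimated counts and TPM, which started from the reads in 1 sequence file instead of that alignment. Which programs were used is not given in the sources used here. Bounds of TPM (unit signal in the deposited gene table) and the posterior SD of a count (a score of sharing) were used as deposited. Spike-ins (0.428% and 0.345% of counts) and rows that name no gene (1.78e-05% and 2.48e-05%) are part of the depths given above. Neither entered a library size, except that spike-in totals set the scale in the spike-in scaling. The animals are hybrids quantified on the C57BL/6J reference, and the effect was not measured.

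Shares are percent of the deposited TPM of a gene, computed here per animal. Expected counts were rounded, genes averaging 10 counts or more were kept, and log2 ratios were taken from CPM scaled by TMM with a prior count of 2, in edgeR 4.0.16 and R 4.3.3. The exact conditional binomial interval (Clopper-Pearson, 95%) covers counting error alone and holds no variation between animals. Without molecular identifiers reads may be copies of a molecule, so the interval may be too narrow even for counting error. The calculation was tested on simulated data. The donor record that both libraries share was taken as a record of the strain, since the males are numbered separately. If it instead named a single donor, the spread called here a spread between animals would be technical. DESeq2 1.42.0 size factors and other settings were tried as alternatives. Of each partner list, every gene of a list of 5 or fewer was named, otherwise the 3 highest and the 1 most different, and 2 of these genes are not reported here. The members and lists were chosen with earlier results of these data known.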

Additional observations from a re-analysis of the deposited data

How the results depend on the processing

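The order of Neto1 and Neto2, the leading transcripts of Grik2 and Neto2 and the sign of the animal ratios turned, and why the quantifications differ was not tested. The Grik sum of 158 TPM was 241 in the other quantification and 325 when TPM was rescaled over protein-coding genes. On measures chosen after seeing the data, it was 135 over complete coding forms and 184 over those forms in the other quantification. The ratio of Grik4 and Grik5 to Grik1, Grik2 and Grik3 was 1.48 in the other quantification, 1.70 over complete coding forms, 1.46 over those in the other quantification and 2.05 from counts per kilobase. The ratio of Neto1 to Neto2 was, in the same order, 0.819, 0.792, 0.756 and 1.02, and that of Grik to Neto genes 2.95, 2.75, 2.43 and 2.72. Without either animal the ranges were 157 to 160 TPM, 1.56 to 1.66, 1.40 to 1.54 and 2.17 to 2.33. With spike-in scaling all 8 members were called higher in replicate 2 instead of 4 lower, at log2 ratios of 0.30 for Grik2, 0.20 for Grik3, 0.27 for Grik4, 0.18 for Grid1, 0.17 for Neto1 and 0.18 for Neto2, around a median of all genes of 0.32. The same 4 members were lower with DESeq2 size factors, a prior count of 0.5, no count minimum, a minimum of 100 and the other quantification. The prior count does not enter the interval, so it could not change a call. DESeq2 size factors and the count minimums kept the counts and barely moved the scale between libraries, at 0.971 to 0.981 against 0.979. Of these settings, only the other quantification changed the counts. Rescaling TPM over protein-coding genes leaves ratios of genes as they are. Taken from TPM with a pseudocount of 1, the log2 ratio of Neto1 between the animals was -0.03, against -0.15 from counts. No paired analysis was possible because both animals belong to 1 group. Depth limits Grik1 and Grik4 most, at 664 to 757 counts.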

Other observations

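Several annotated genes lie inside the members. Ftl2-ps, a processed pseudogene of a ferritin light chain gene inside Grik3 on the same strand, was at 9.67 and 9.11 TPM on 95.4 and 88.2 expected counts, which are not part of the Grik3 count. The 6 noncoding models inside Grik2 on its strand had between 3 and 52 counts each, and the highest, Gm47022, had 33 and 52. The microRNA host relation of Grid1 and Mir346 gave no value, since Mir346 had no count in either library (which leaves room for 3 counts in each), and these libraries were not made for small RNA.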
